A study of Mus musculus with 27 samples.

Results

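A set of 10 genes of cell-to-cell adhesion was followed through 27 RNA libraries of mouse thyroid. They were the cadherin genes Cdh1, Cdh2, Cdh6 and Cdh16, the catenin genes Ctnna1, Ctnnb1 and Ctnnd1, the epithelial adhesion gene Epcam, the tight junction gene Tjp1 and the mesenchymal filament gene Vim. The 10 genes were taken by name from the 54532 gene rows of the deposited count table. Each had a row and passed the filter on low counts in every comparison.

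The study asked how proliferative thyroid lesions that arise after radiation exposure differ from normal thyroid. PL libraries (n = 9) came from proliferative lesions of exposed mice. NT libraries (n = 9) came from normal thyroid of the same 9 exposed mice, taken next to histologic abnormalities, so that each PL library had an NT partner from its own mouse. NCT libraries (n = 9) came from normal thyroid of 9 other mice that were not exposed. Each group held 6 female and 3 male mice. Tissue areas were cut from sections by laser capture, so every library mixed whatever cells lay in the captured area. Dose, strain and age are not in the labels, and in NT against NCT the exposure itself and the nearness of a lesion cannot be told apart.

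The follicular cells of the thyroid form a single-layered epithelium that is held together by adherens junctions, tight junctions and desmosomes. In an adherens junction the outer domains of cadherins bind those of the neighbouring cell, and their tails bind beta-catenin and the delta-type catenin, while alpha-catenin links the complex to actin. Beta-catenin is also the transcriptional partner of the Wnt pathway, and loss of E-cadherin with gain of N-cadherin and vimentin is the textbook picture of an epithelial cell that turns mesenchymal.

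Libraries held 2923851 to 14148601 counts, with medians of 6479022 in PL, 7220957 in NT and 4622595 in NCT. The labelled tissue was checked by 12 follicular markers (Tg, Pax8 and others), all of which had counts in each group. Their summed level, in counts divided by a library-size factor (CPM), ran between 12695 and 37277 in PL, between 13565 and 43580 in NT and between 27858 and 63151 in NCT. Some libraries carried transcripts of other tissues. Parathyroid hormone mRNA (Pth) exceeded 2000 CPM in 1 PL library, in NT libraries of 2 further mice and in NCT replicates 5 and 8, and mRNA of the gastric lipase Lipf exceeded it in NCT replicate 9. Mitochondrial genes took 20.3% of counts in NCT replicate 6 and 20% in NCT replicate 9, and 8.35% to 14.1% in the other libraries. Where leaving out the libraries high in Pth or Lipf, or these 2, ended the call of a member or of a named list gene, the value without them is given. Because each read marks the 3′ end of a transcript, CPM are compared between groups and not between genes.

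Promoter sequence is shown for the member that differed most clearly, Epcam, and for the member whose level varied most among lesions, Cdh6. Both are the 250 bases before the RefSeq transcription start (GRCm38.p6), read on the strand of the gene. The Epcam window is chr17:87635729-87635978 on the plus strand, and the Cdh6 window is chr15:13173676-13173925 on the minus strand. Capitals mark E-boxes (CANNTG), the core letters that helix-loop-helix factors and the zinc finger repressors of the Snail and Zeb families bind, and GC boxes (GGGCGG or its complement CCGCCC), with both strands searched.

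Epcam: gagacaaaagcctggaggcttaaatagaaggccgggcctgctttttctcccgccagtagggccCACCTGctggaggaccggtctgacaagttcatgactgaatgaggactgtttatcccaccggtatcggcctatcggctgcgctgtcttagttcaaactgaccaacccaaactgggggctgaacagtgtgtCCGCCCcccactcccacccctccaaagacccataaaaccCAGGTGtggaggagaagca

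Cdh6: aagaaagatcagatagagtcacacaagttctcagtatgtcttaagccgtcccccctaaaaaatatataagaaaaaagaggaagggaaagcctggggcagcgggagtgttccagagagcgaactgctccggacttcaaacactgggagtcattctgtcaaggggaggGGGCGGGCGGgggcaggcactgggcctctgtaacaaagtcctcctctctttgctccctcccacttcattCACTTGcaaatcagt

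The Epcam window held 2 E-boxes, at positions -187 and -19 from the start, and both have the letters CACCTG or CAGGTG, the form of the E-box that Snail and Zeb factors are known to bind. It also held 1 GC box at -58. The Cdh6 window held 1 E-box at -15, which is not of that form, and 2 overlapping GC boxes at -84 and -80. Among 32851 RefSeq promoter windows of the same length, 66.2% held an E-box, 17.2% held CAGGTG or CACCTG and 32.7% held a GC box. A match is a description of the letters only. Of the 10 genes, 6 had a window in the RefSeq table used here.

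**Figure D1:**
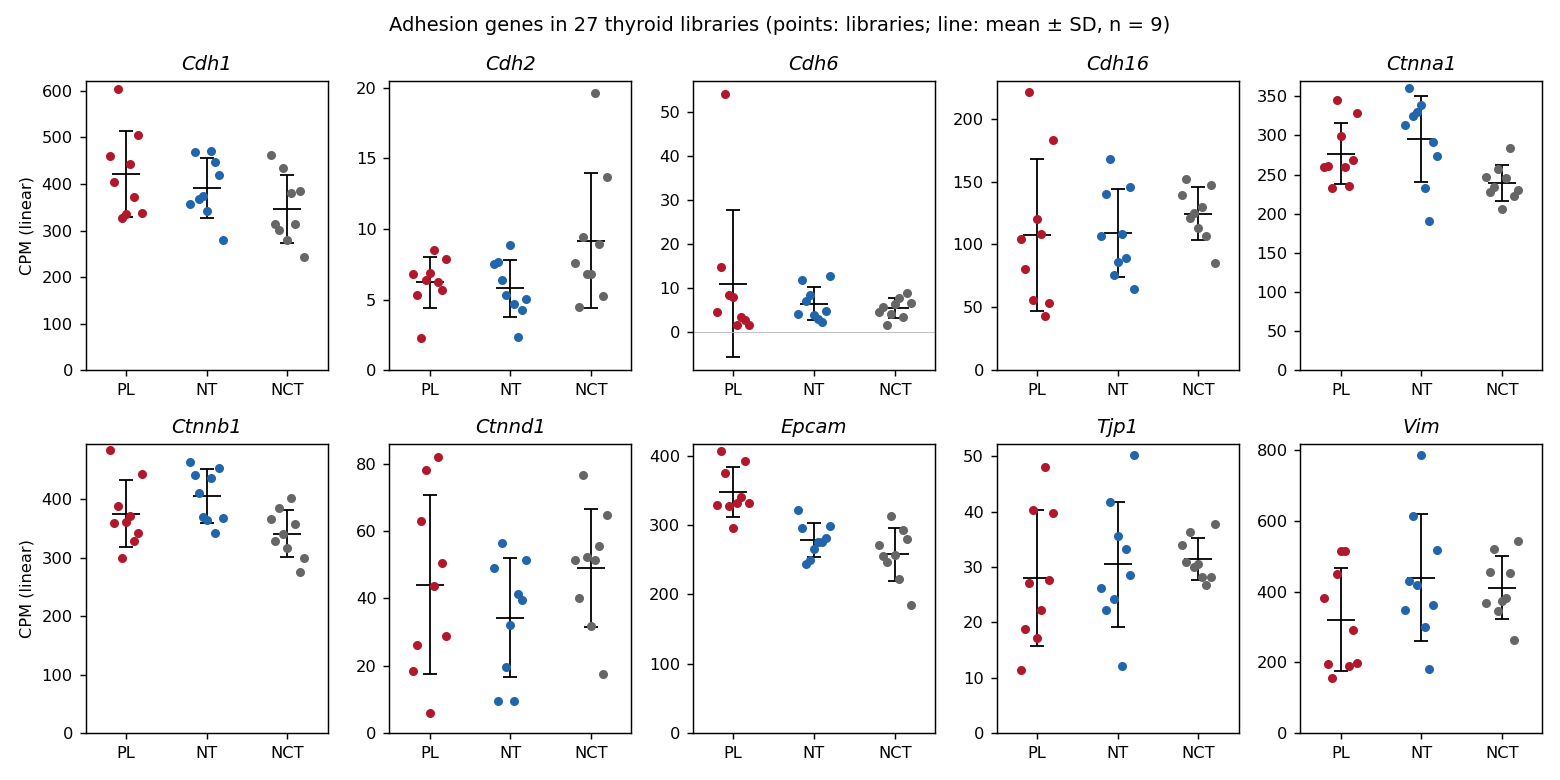
CPM (linear axes) of the 10 adhesion genes in PL, NT and NCT; each point is 1 library and the lines are mean ± SD (n = 9). Epcam is the gene whose PL points lie mostly above the others (PL 296 to 406 CPM, NT 244 to 321 CPM, NCT 184 to 313 CPM), while 1 PL library of Cdh6 stands at 54.1 CPM.

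The first question was what marks a lesion beside normal tissue of the same mouse. None of the 10 members passed the threshold in PL against NT, an adjusted p under 0.05 in edgeR's quasi-likelihood F test with the mouse as a block and Benjamini-Hochberg adjustment over 14461 genes. Of all tested genes, 3.08% passed it (255, or 1.76%, higher and 190, or 1.31%, lower in PL). At an unadjusted p under 0.05, 1 member (Epcam) stood beside 17.6% of all genes. The DESeq2 Wald test and limma-voom each called 1 member, again Epcam. The members' median log2 fold change was 0.01, beside 0.00 over all genes.

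Epcam (chr17:87635979-87651129) encodes a homophilic adhesion molecule of simple epithelia. Its level in PL was lowest at 296 CPM, with a median of 332 and a highest value of 406 CPM, against 244, 276 and 321 CPM in NT. It was higher in the lesion than in the normal tissue in 9 of 9 mice, a pattern seen for 1.69% of all genes, and 8 of the 9 PL libraries lay above every NT library. The log2 fold change was 0.33 (SE 0.09, 95% interval 0.14 to 0.52), which is 1.26-fold, with an adjusted p of 0.0601 in edgeR. Without the block the adjusted p was 0.0521, the DESeq2 Wald test gave 0.017 and limma-voom gave 0.0468, so the call depended on the tool. Over all alternatives other than left-out mice the adjusted p ran between 0.017 and 0.339, and over the left-out mice between 0.0603 and 0.147. In the same comparison 11 of the 12 follicular markers had fold changes above 0, with a median log2 fold change of 0.42, and 1 (Tshr) rose. Fibroblast markers lay below 0 in 10 of 10 and airway and squamous epithelium markers in 10 of 10. Of 8 C cell markers, 6 fell, with a median log2 fold change of -3.27, and their sum had a median of 113 CPM in PL and 1553 CPM in NT. Their part in the Epcam difference was not tested. In tissue libraries of this kind, fewer cells of a type and less RNA per cell cannot be told apart.

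Set against the unexposed thyroid, Epcam rose in PL. NCT libraries held 184 CPM at the lowest, 257 at the median and 313 at the highest, so 8 of 9 PL libraries lay above every NCT library and 9 of 9 above the NCT median. The log2 fold change was 0.42 (SE 0.10, 95% interval 0.21 to 0.63), 1.34-fold, with an adjusted p of 0.0104 in edgeR. No other member was called in PL against NCT, a comparison that called 10.1% of its 14234 genes, 5.45% as higher in PL and 4.62% as lower. At an unadjusted p under 0.05 it was again the 1 member, beside 23.6% of all genes. The call stood in 18 of 18 fits that left out 1 library. It ended without the libraries high in Pth or Lipf (log2 fold change 0.35, adjusted p = 0.0758), in females alone (0.29, adjusted p = 0.188), with the adipocyte markers as a covariate (0.25, adjusted p = 0.507) and in mice of 1 number series alone (0.49, adjusted p = 0.181). The lowest NCT values, 184 and 222 CPM, were those of replicates 9 and 6, the libraries with the high mitochondrial share, and without both the log2 fold change was 0.35 (adjusted p = 0.0425). Over all 14 alternatives other than a left-out library the adjusted p ran between 0.00124 and 0.507. Adipocyte markers summed to 126 to 1755 CPM in PL and 756 to 6210 CPM in NCT. All 9 of them that were tested lay below 0 in PL against NCT (median -1.78 on the log2 scale). The adipocyte covariate thus differed between the groups, and that fit cannot separate the markers from the group. Of the 8 C cell markers 6 fell and 1 (Calcb) rose in PL against NCT, with a median of -4.76 on the log2 scale. Follicular markers lay above 0 in 11 of 12 (median 0.44), of which 3 rose, and 1 (Tg) fell. Of 8 airway and squamous epithelium markers tested 6 fell and 1 lay above 0 (median -2.99). Of 7 Schwann cell and nerve markers 4 fell, and of 10 fibroblast markers 4 fell and 2 lay above 0. The part of the C cell, follicular, airway, nerve and fibroblast markers in the Epcam difference was not tested.

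Epcam in NT (mean 278 ± 24.4 CPM) and in NCT (258 ± 38.4 CPM, SD, n = 9 each) did not pass the threshold against each other (log2 fold change 0.10, 95% interval -0.10 to 0.29, adjusted p = 0.729 in edgeR). Without NCT replicates 6 and 9 it was 0.01. The order of its means was therefore PL, NT and NCT, with the last 2 neighbours within their spread. PL against NT and PL against NCT use the same PL libraries and are not independent. The coefficient of variation of Epcam was 10.2% in PL, 8.77% in NT and 14.9% in NCT, beside medians of 20.7%, 18.2% and 16.7% for genes of like level. Of those genes 2.84% were steadier in PL, 3.9% in NT and 40.3% in NCT. The 3 genes whose log2 CPM followed Epcam most closely over the 27 libraries, after centring on the group means, were Prpf6 (r = 0.696), Morn2 (0.684) and Bex3 (0.656). Such likeness is a description across libraries that share mice and depth.

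**Figure D2:**
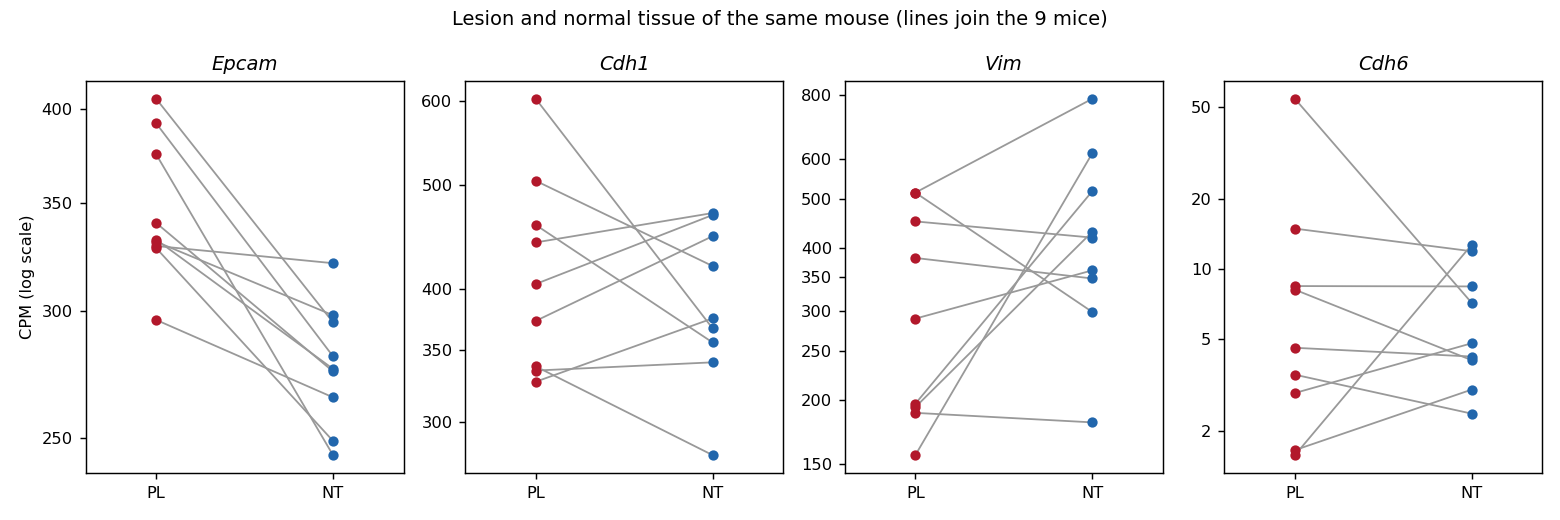
CPM (log scale) of Epcam, Cdh1, Vim and Cdh6 in PL and NT; each line joins the lesion and the normal tissue of 1 of the 9 mice. All 9 Epcam lines go down towards NT, while those of the other genes cross.

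Cdh1 (chr8:106603351-106670246) encodes E-cadherin, the main cadherin of epithelial adherens junctions. PL libraries ran between 327 and 603 CPM with a median of 404 CPM, NT libraries between 279 and 471 CPM with a median of 375 CPM, and NCT libraries between 243 and 463 CPM with a median of 314 CPM. The 3 ranges overlapped widely, and the lesion was above its own normal tissue in 4 of 9 mice. The log2 fold change was 0.10 in PL against NT (95% interval -0.14 to 0.34, adjusted p = 0.703) and 0.27 in PL against NCT (95% interval -0.02 to 0.56, adjusted p = 0.245), with 9 of 9 PL libraries above the NCT median. In NT against NCT it was 0.17 (95% interval -0.09 to 0.43, adjusted p = 0.624). The lower end of the paired interval lies at -0.14, a small fall.

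Cdh16 (chr8:104601911-104624396) encodes kidney-specific cadherin, which is also known as a marker of the thyroid follicular cell. It had 43.3, 104 and 221 CPM at the lowest, median and highest PL library, against 64.8, 107 and 168 CPM in NT and 85.1, 125 and 152 CPM in NCT. The medians were close, but the lesions spread to both sides: 2 PL libraries lay above every NT library and 3 lay below every one. The coefficient of variation was 56.2% in PL, 31.9% in NT and 16.8% in NCT, and the medians for genes of like level were 20.6%, 18.2% and 16.8%. No test was made of this difference in spread. Fold changes on the log2 scale were -0.15 in PL against NT (adjusted p = 0.828), -0.23 in PL against NCT (adjusted p = 0.649) and -0.20 in NT against NCT (adjusted p = 0.65). The most similar genes over the 27 libraries were Tspan9 (r = 0.791), Atp6v0e2 (0.704) and Tbc1d9b (0.656).

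Cdh6 (chr15:13028701-13173675), a type II cadherin first known from kidney, was low and uneven. PL libraries had 1.57 CPM at the lowest, 4.56 at the median and 54.1 at the highest, against 2.37, 4.77 and 12.7 CPM in NT and 1.79, 5.82 and 9.03 CPM in NCT. The highest value was that of PL replicate 3, where the normal tissue of the same mouse had 7.12 CPM, and the next PL library had 14.9 CPM. A library held between 8 and 333 Cdh6 counts, which limits its precision. Cdh6 had a log2 fold change of 0.10 in PL against NT (SE 0.48, adjusted p = 0.946) and 1.0 in PL against NCT (SE 0.59, 95% interval -0.24 to 2.23, adjusted p = 0.331). Without PL replicate 3 these were -0.26 and 0.04, so that 1 lesion set most of the second value, and the first lay within its error of 0. The paired change was -1.07 in males and 0.67 in females, a difference of -1.73 (SE 0.90) whose adjusted p was 1 in edgeR.

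Cdh2 (chr18:16588877-16809246) encodes N-cadherin, which neural and mesenchymal cells use. It had 2.27, 6.36 and 8.53 CPM at the lowest, median and highest PL library, against 2.37, 5.35 and 8.84 CPM in NT and 4.48, 7.62 and 19.6 CPM in NCT. PL and NT overlapped almost completely, and the highest libraries were NCT replicates 6 (19.6 CPM) and 9 (13.7 CPM), those with the high mitochondrial share. Libraries held 12 to 105 Cdh2 counts. Cdh2 had a log2 fold change of 0.12 in PL against NT (95% interval -0.52 to 0.76, adjusted p = 0.882), -0.65 in NT against NCT (adjusted p = 0.383) and -0.56 in PL against NCT (adjusted p = 0.248). Without those 2 libraries it was -0.29 in NT against NCT and -0.18 in PL against NCT. Markers of Schwann cells and nerve, which express N-cadherin, summed to 90.6 to 196 CPM in PL, 173 to 367 CPM in NT and 252 to 660 CPM in NCT. Within the groups the relation of Cdh2 to this sum did not pass. It had r = 0.303 in PL, 0.136 in NT and 0.383 in NCT (adjusted exact permutation p = 0.471, 0.802 and 0.465). Without the 2 libraries farthest from the median sum r was 0.77, 0.309 and 0.317. The part of these markers in the Cdh2 differences between groups was not tested. The gene nearest to Cdh2 in its pattern was Cdh5, the cadherin of endothelial cells (r = 0.726), followed by Sh3pxd2a (0.723) and Ppm1a (0.705).

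**Figure D3:**
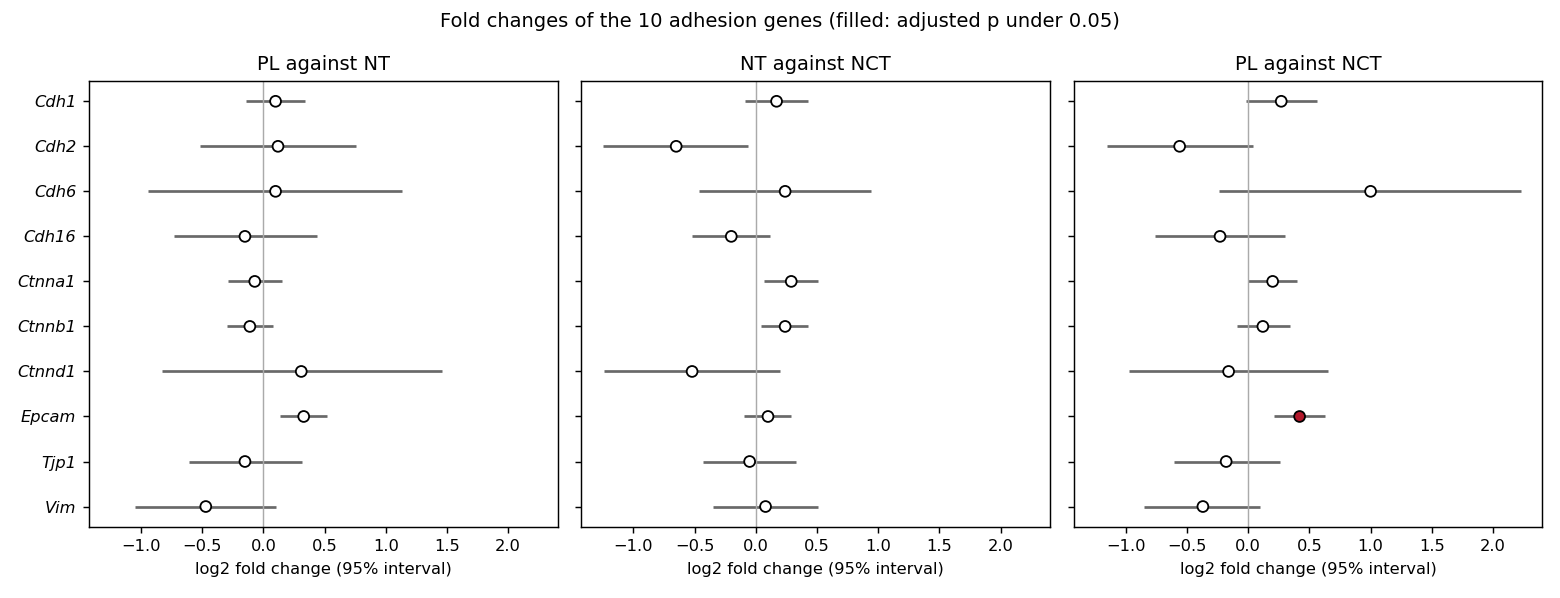
Log2 fold changes of the 10 members with 95% intervals in PL against NT, NT against NCT and PL against NCT; a filled point passed an adjusted p of 0.05 in edgeR. The filled point is Epcam in PL against NCT (0.42), and the widest intervals are those of Cdh6, Ctnnd1 and Cdh2.

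Of the catenins, Ctnnb1 (chr9:120929216-120960507) encodes beta-catenin. PL libraries ran between 300 and 485 CPM (median 362), NT between 342 and 465 CPM (median 411) and NCT between 276 and 402 CPM (median 341). NT was the highest group at the median, and PL lay below its own NT library in 7 of 9 mice. For Ctnnb1 the log2 fold change was -0.11 in PL against NT (95% interval -0.30 to 0.08, adjusted p = 0.581), 0.24 in NT against NCT (SE 0.09, adjusted p = 0.331, with 9 of 9 NT libraries above the NCT median) and 0.12 in PL against NCT (adjusted p = 0.523). Ulk4, a gene on the opposite strand that overlaps Ctnnb1, held 302 counts in all libraries beside 72388 for Ctnnb1.

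Ctnna1 (chr18:35118859-35254779), the gene of the alpha-catenin that links the complex to actin, followed the same order. It had 233, 261 and 345 CPM at the lowest, median and highest PL library, against 191, 313 and 361 CPM in NT and 206, 234 and 284 CPM in NCT. In NT, 6 of 9 libraries lay above every NCT library, and 1 lay below every one. The log2 fold change was 0.29 in NT against NCT (SE 0.11, adjusted p = 0.294), -0.07 in PL against NT (95% interval -0.29 to 0.15, adjusted p = 0.774) and 0.20 in PL against NCT (adjusted p = 0.217). In NT against NCT, 0.0277% of 14447 tested genes passed the threshold and none of the 10 members did in edgeR, DESeq2 or limma-voom. At an unadjusted p under 0.05 there were 3 members (Ctnna1, Ctnnb1 and Cdh2), beside 11.6% of all genes.

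Ctnnd1 (chr2:84600071-84650765) encodes the delta-type catenin that holds cadherins at the membrane. Its levels differed 14.2-fold between the highest and the lowest lesion, with 5.78, 43.7 and 82.1 CPM at the lowest, median and highest PL library, against 9.45, 39.5 and 56.3 CPM in NT and 17.6, 51.3 and 76.7 CPM in NCT. The coefficient of variation was 60.4% in PL, 51.9% in NT and 35.6% in NCT, where genes of like level had medians of 23.6%, 22.2% and 20.1%. The spread therefore ran through all 3 groups, and no comparison passed the threshold (log2 fold change 0.31 in PL against NT with SE 0.51, -0.52 in NT against NCT and -0.16 in PL against NCT). Snx3, a sorting nexin gene, tracked it at r = 0.951 over the 27 centred libraries, followed by Gnb2 (0.936) and Tdrd7 (0.923), the closest likenesses of any member. Gm28635, a protein-coding gene that overlaps Ctnnd1 on the same strand, held 0 counts in all libraries beside 7531 for Ctnnd1. The effect of this overlap on the Ctnnd1 counts was not tested.

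Tjp1 (chr7:65296165-65527781) encodes a zonula occludens scaffold that ties tight junctions to actin. PL libraries ran between 11.3 and 48.1 CPM (median 27), NT between 12 and 50.3 CPM (median 28.5) and NCT between 26.7 and 37.7 CPM (median 30.6). The medians lay close together, while the exposed mice spread on both sides of the NCT range: 3 PL libraries lay above and 4 lay below every NCT library, and 2 NT libraries lay above and 4 below. The coefficient of variation was 43.9% in PL, 37.2% in NT and 12.1% in NCT, beside 26.4%, 22.7% and 23% for genes of like level. Only 3.12% of those genes were steadier in NCT, and no test was made of this difference in spread. On the log2 scale Tjp1 changed by -0.15 in PL against NT (adjusted p = 0.782), -0.18 in PL against NCT (adjusted p = 0.676) and -0.05 in NT against NCT (adjusted p = 0.945). Gm44794 and Gm44792, which overlap Tjp1 on the same strand, held 6 and 0 counts beside 5739 for Tjp1. The effect of these overlaps on the Tjp1 counts was not tested.

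Pairs of members were compared within each group, as Pearson correlations over 9 libraries with an exact permutation test. Among 135 pairs, 15 had an unadjusted p under 0.05 and 0 an adjusted p under 0.05. The 3 of smallest p were Cdh2 with Ctnna1 in NT (r = 0.885, rho = 0.867, 0.701 without the 2 farthest libraries), Ctnnd1 with Tjp1 in NT (r = 0.822, rho = 0.817, 0.612 without the 2 farthest) and Cdh2 with Cdh6 in PL, which ran opposite ways (r = -0.872, rho = -0.7, -0.558 without the 2 farthest), each with an exact permutation p adjusted to 0.15.

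Vim (chr2:13573927-13582826) encodes vimentin, the intermediate filament of mesenchymal cells. It had 156, 290 and 514 CPM at the lowest, median and highest PL library, against 181, 419 and 787 CPM in NT and 262, 381 and 542 CPM in NCT. The lesion was below its own normal tissue in 5 of 9 mice, and the groups overlapped. For Vim the log2 fold change was -0.47 in PL against NT (SE 0.26, 95% interval -1.05 to 0.10, adjusted p = 0.389), -0.37 in PL against NCT (adjusted p = 0.345) and 0.08 in NT against NCT (adjusted p = 0.922). The upper end of the paired interval lies at 0.10, a small rise.

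Fibroblast markers moved with Vim. The 10 markers (Col1a1, Dcn, Pdgfra and others) summed to 977 to 4446 CPM in PL (median 1860), 2062 to 5315 CPM in NT (median 3352) and 2690 to 3687 CPM in NCT (median 3154). In PL against NT 10 of 10 had a fold change below 0, with a median of -0.65 on the log2 scale, and 1 (Col6a2) fell. Across libraries Vim followed the fibroblast sum in PL (r = 0.832, rho = 0.883, adjusted exact permutation p = 0.0136 and 0.0138) and in NT (r = 0.887, rho = 0.95, adjusted exact permutation p = 0.00382 and 0.00317). In NCT the relation did not pass (r = 0.673, rho = 0.667, adjusted exact permutation p = 0.136 and 0.133). Without the 2 libraries farthest from the median fibroblast sum r was 0.854 in PL, 0.832 in NT and 0.629 in NCT. These were 3 of 9 relations tested; Cdh2 with endothelial or Schwann cell markers did not pass in any group. The genes most like Vim were Lrp1 (r = 0.864), Lpar1 (0.85) and Fstl1 (0.843). In PL against NT, endothelial and macrophage markers also lay below 0 in 10 of 10 each. So did Schwann cell and nerve markers in 8 of 8 and adipocyte markers in 9 of 9. Of 8 pericyte and smooth muscle markers 6 lay below 0 and 2 above. Vim was not compared with the sums of these lists. What the number of fibroblasts, or of these other cells, contributes to the Vim values was not tested.

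**Figure D4:**
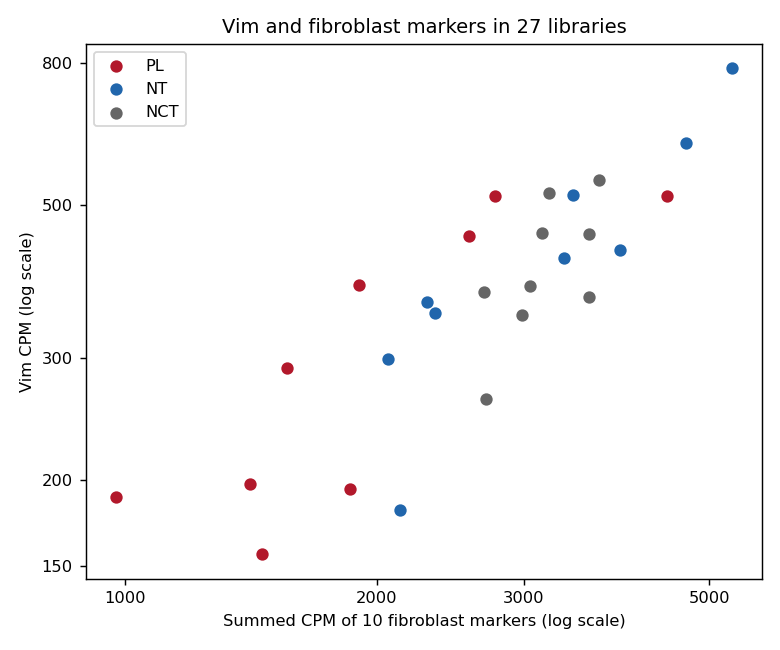
Vim CPM against the summed CPM of 10 fibroblast markers (both log scales) in the 27 libraries, coloured by group. Vim climbs with the marker sum in PL (r = 0.832) and NT (r = 0.887), and several PL libraries lie low on both axes.

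Among the other members the closest patterns were Gstt3 (r = 0.771) for Cdh1, Gas8 (0.666) for Cdh6, Mgp (0.788) for Ctnna1, Commd4 (0.781) for Ctnnb1 and Gpkow (0.84) for Tjp1. No member's change passed the test of a difference between the sexes. None of the 3 sex interactions called any gene in edgeR (the one tool run, with its own or with DESeq2 size factors): 0 of all genes were called in each, and 2.77% of genes in PL against NT, 2.85% in NT against NCT and 5.13% in PL against NCT had an unadjusted p under 0.05. Epcam in PL against NCT changed by 0.69 in males and 0.29 in females, a difference of 0.40 (SE 0.21, adjusted p = 0.969).

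Beyond the 10 members, 191 further genes of junctions, transition factors and beta-catenin control were read from the same fits in 9 lists. In PL against NT 151 of them were tested, and 5 rose and 7 fell, or 7.95% called, beside 3.08% of all genes. In PL against NCT 149 were tested, and 15 rose and 12 fell, or 18.1% beside 10.1%. The lists were chosen with earlier results of these data known. These shares therefore cannot show that such genes were called more often than others. None of 149 passed in NT against NCT in edgeR or limma-voom and 1 did in DESeq2; 24 had an unadjusted p under 0.05 in edgeR, where 11.6% of all genes had, and the median of the 149 was 0.08, beside 0.01 over all genes. The medians were -0.03 in PL against NT and 0.09 in PL against NCT, so the lists as a whole held rises and falls side by side.

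**Figure D5:**
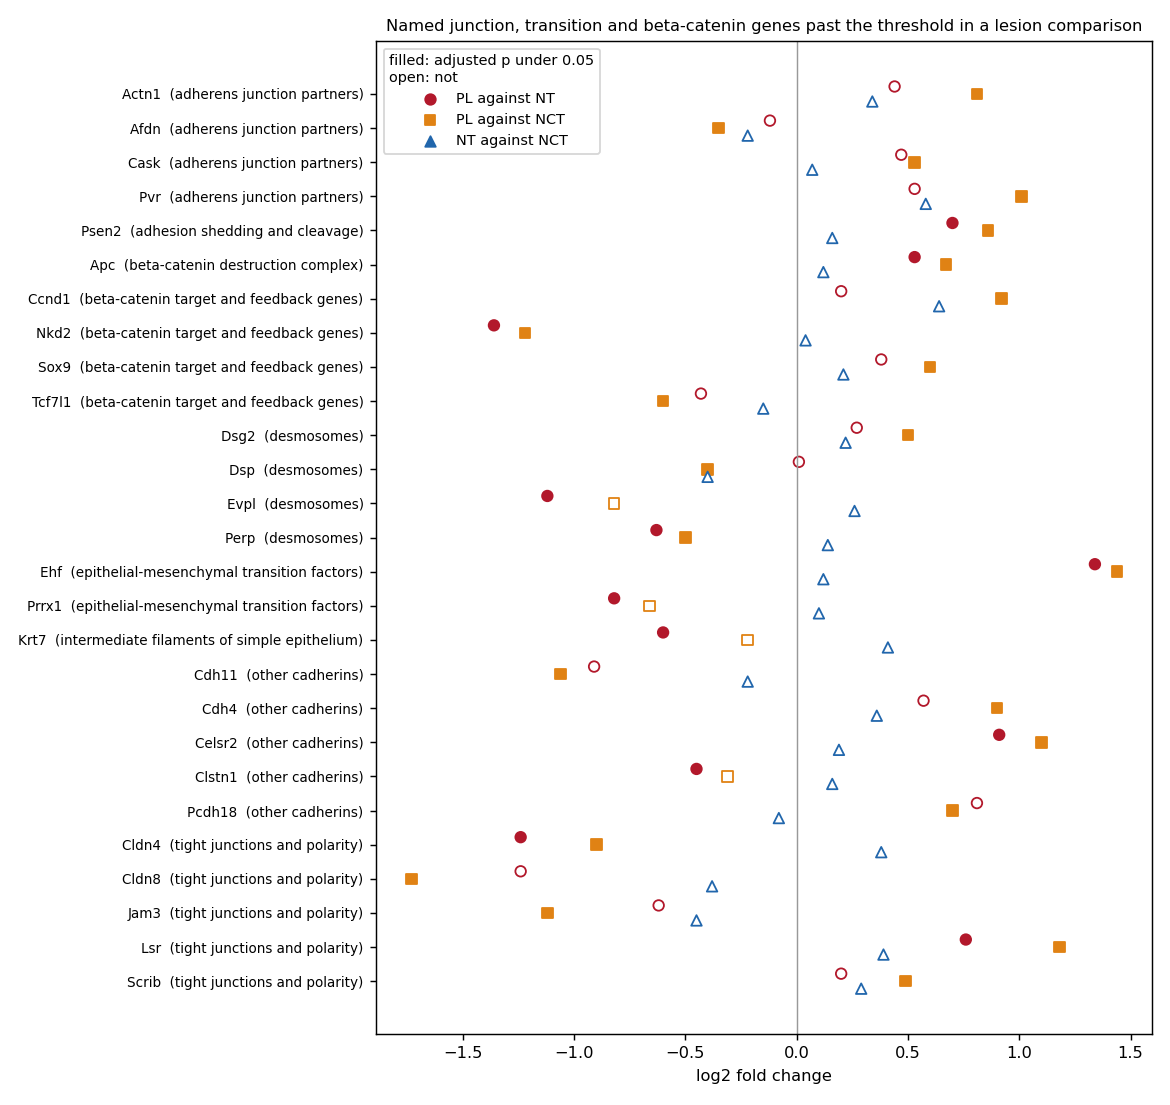
Log2 fold changes of named list genes that passed the threshold in at least 1 lesion comparison; circles are PL against NT, squares PL against NCT and triangles NT against NCT, filled where the adjusted p in edgeR was under 0.05. Lsr, Celsr2, Ehf, Apc and Psen2 are filled on the right in both lesion comparisons and Cldn4, Nkd2 and Perp on the left, while every triangle is open.

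Among 18 other cadherins tested, Celsr2, an adhesion receptor of planar cell polarity, rose in lesions. It averaged 92.8 ± 24.6 CPM in PL and 49.6 ± 12.2 CPM in NT (SD, n = 9 each; 0.91 on the log2 scale, SE 0.16, adjusted p = 0.0108 in edgeR), with no overlap between the groups. Clstn1, a calsyntenin, fell (103 ± 18.9 CPM in PL, 143 ± 33.7 CPM in NT; log2 fold change -0.45, adjusted p = 0.0372), a call that ended without the mice high in Pth or Lipf (-0.34, adjusted p = 0.246). Against NCT, Celsr2 rose again (log2 fold change 1.1, adjusted p = 0.000253; NCT 42.9 ± 12.7 CPM), as did Cdh4, the gene of R-cadherin (128 ± 53.1 CPM in PL, 67.7 ± 18.4 CPM in NCT; 0.90, adjusted p = 0.00706), and Pcdh18, a protocadherin (0.70, adjusted p = 0.0285). The Pcdh18 call ended without the libraries high in Pth or Lipf (0.54, adjusted p = 0.185). Cdh11, the cadherin of fibroblasts and osteoblasts, fell (7.71 ± 3.92 CPM in PL, 16.1 ± 6.53 CPM in NCT; -1.06, adjusted p = 0.0293), in the comparison in which 4 of the 10 fibroblast markers fell; their part in it was not tested. Without NCT replicates 6 and 9 Cdh11 was not called (-0.94, adjusted p = 0.103). The gene of smallest p in NT against NCT was Clstn3 (-1.45, adjusted p = 0.265).

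Of 28 adherens junction partners, none passed in PL against NT in edgeR or limma-voom and 2 did in DESeq2. At an unadjusted p under 0.05 in edgeR there were 7, beside 17.6% of all genes. The smallest p was that of Ajuba, a LIM protein of the junction (-0.77, adjusted p = 0.0584). In PL against NCT 4 rose and 1 fell, where 10.1% of all genes were called. Pvr, a nectin-like receptor, rose to 73.4 ± 12.6 CPM in PL, against 35.9 ± 8.18 CPM in NCT (log2 fold change 1.01, adjusted p = 5.55e-05), with no overlap between the groups. Actn1, an actin crosslinker, rose as well (261 ± 68.8 CPM in PL, 148 ± 29.5 CPM in NCT; 0.81, adjusted p = 0.00144), as did the scaffold gene Cask (0.53, adjusted p = 0.0112). Afdn, which encodes afadin, the anchor of nectins, fell (-0.35, adjusted p = 0.03). Cask was not called without the libraries high in Pth or Lipf (0.54, adjusted p = 0.0501), nor Afdn without NCT replicates 6 and 9 (-0.34, adjusted p = 0.0786). Actn1 had the smallest p of this list in NT against NCT (0.34, adjusted p = 0.264).

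Tight junction and polarity genes moved both ways. In PL against NT 1 of 37 rose and 1 fell, where 3.08% of all genes were called. Lsr, which encodes angulin of tricellular junctions, rose to 272 ± 91.4 CPM in PL, against 158 ± 34.2 CPM in NT (0.76 on the log2 scale, SE 0.13, adjusted p = 0.0104) and 119 ± 21.3 CPM in NCT (1.18, SE 0.16, adjusted p = 5.86e-05). Its change in NT against NCT, 0.39, did not pass (adjusted p = 0.244). Cldn4, a claudin of barrier epithelia, fell to 50.2 ± 13.9 CPM in PL, against 121 ± 47.7 CPM in NT (-1.24, SE 0.18, adjusted p = 0.00599), with no overlap. Without the mice high in Pth or Lipf, Cldn4 stood at -1.17 (adjusted p = 0.0505). In PL against NCT 2 of 36 rose, Lsr and the polarity gene Scrib (0.49, adjusted p = 0.0155), and 6 fell. There 10.1% of all genes were called. Scrib was not called without the libraries high in Pth or Lipf (0.38, adjusted p = 0.149) or without NCT replicates 6 and 9 (0.45, adjusted p = 0.0586). The falls of smallest p were Jam3, a junctional adhesion molecule (-1.12, adjusted p = 0.000476), and Cldn8, a claudin (-1.73, adjusted p = 0.00108).

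A few desmosome and keratin genes passed the threshold. Of all genes 3.08% passed it in PL against NT and 10.1% in PL against NCT. Of 9 desmosome genes tested in PL against NT, Perp (-0.63, adjusted p = 0.0331) and Evpl (-1.12, adjusted p = 0.0426), membrane and plaque proteins of squamous desmosomes, fell. Of 4 keratins of simple epithelium, Krt7 fell (102 ± 40.2 CPM in PL, 157 ± 62.2 CPM in NT; -0.60, adjusted p = 0.0413). None of these 3 calls stood without the mice high in Pth or Lipf, a fit of fewer mice that called 95 genes instead of 445. The log2 fold changes there were -0.41 for Perp (adjusted p = 0.235 in edgeR), -0.92 for Evpl (0.231) and -0.66 for Krt7 (0.125). In PL against NCT Dsg2, the desmosomal cadherin of simple epithelia, rose (163 ± 38 CPM in PL, 114 ± 16.5 CPM in NCT; 0.50, adjusted p = 0.012), Dsp, desmoplakin, fell (-0.40, adjusted p = 0.0296) and Perp fell (-0.50, adjusted p = 0.0414). Without the libraries high in Pth or Lipf, a fit of fewer libraries, Dsp stood at -0.39 (adjusted p = 0.0778 in edgeR) and Perp at -0.51 (0.118). Without NCT replicates 6 and 9 Perp stood at -0.44 (adjusted p = 0.129 in edgeR). No keratin passed there in edgeR, DESeq2 or limma-voom, none of the 4 had an unadjusted p under 0.05, and Krt8 had the smallest p (0.24, adjusted p = 0.453). The smallest p of each list in NT against NCT was that of Dsp (-0.40, adjusted p = 0.166) and of Krt18 (0.50, adjusted p = 0.211). The 10 markers of airway and squamous epithelium summed to 38.2 to 462 CPM in PL, 128 to 6285 CPM in NT and 352 to 5222 CPM in NCT, and 4 of them fell in PL against NT. Their part in the falls of Cldn4, Perp, Evpl and Krt7 was not tested.

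Among 19 factors of the epithelial-mesenchymal transition, 1 rose and 1 fell in PL against NT in edgeR, while DESeq2 called 4 and limma-voom 2. At an unadjusted p under 0.05 in edgeR there were 7, beside 17.6% of all genes. In PL against NCT edgeR called 1, DESeq2 4 and limma-voom 2. There 10 had an unadjusted p under 0.05 in edgeR, beside 23.6% of all genes. Ehf, an epithelial ETS factor, rose to 145 ± 47.1 CPM in PL, against 58.3 ± 21.7 CPM in NT (1.34 on the log2 scale, SE 0.26, adjusted p = 0.0225) and 53.3 ± 29.7 CPM in NCT (1.44, adjusted p = 0.00198). Prrx1, a mesenchymal homeobox factor, fell (42.8 ± 21.8 CPM in PL, 72 ± 22 CPM in NT; -0.82, adjusted p = 0.0311), alongside the lower fibroblast markers given above. Both calls in PL against NT ended without the mice high in Pth or Lipf (Ehf 1.26, adjusted p = 0.142; Prrx1 -0.60, adjusted p = 0.275). Of the known repressors of Cdh1, Snai2 had a log2 fold change of -0.15 (adjusted p = 0.772), Zeb1 of -0.26 (adjusted p = 0.575), Zeb2 of -0.65 (adjusted p = 0.0659) and Twist1 of 0.42 (adjusted p = 0.749). None of these 4, chosen for naming with their values in view, passed the threshold in edgeR, but Zeb2 passed in the DESeq2 Wald test (-0.66, adjusted p = 0.0106) and in edgeR without a filter (-0.65, adjusted p = 0.0173). Spint2 had the smallest p in NT against NCT (-0.47, adjusted p = 0.318).

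Of the genes that read out or control beta-catenin, 1 target or feedback gene of 13 passed in PL against NT and 4 of 13 in PL against NCT. The shares of all genes were 3.08% and 10.1%. Nkd2, a Wnt feedback inhibitor, fell to 17.6 ± 9.02 CPM in PL, against 42.2 ± 13.3 CPM in NT (-1.36 on the log2 scale, SE 0.21, adjusted p = 0.00736) and 40.6 ± 9.09 CPM in NCT (-1.22, adjusted p = 0.00397). In PL against NCT Sox9 rose (510 ± 136 CPM in PL, 333 ± 57.2 CPM in NCT; 0.60, adjusted p = 0.00693) and so did Ccnd1, cyclin D (258 ± 122 CPM in PL, 135 ± 38.9 CPM in NCT; 0.92, adjusted p = 0.0112), while Tcf7l1, a repressor of the pathway, fell (-0.60, adjusted p = 0.0136). Ccnd1 also had the smallest p of its list in NT against NCT (0.64, adjusted p = 0.121). Of 13 destruction complex genes Apc, the scaffold that marks beta-catenin for degradation, rose to 147 ± 37.4 CPM in PL, against 100 ± 11.1 CPM in NT (0.53, adjusted p = 0.0292) and 91.2 ± 14 CPM in NCT (0.67, adjusted p = 0.00259). Its call against NT ended without the mice high in Pth or Lipf (0.47, adjusted p = 0.185). Dvl1 was nearest to the threshold in NT against NCT (0.25, adjusted p = 0.471).

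Of 13 genes that shed or cleave adhesion molecules, Psen2, a presenilin of the gamma-secretase that cuts cadherin tails, rose to 49.1 ± 17.6 CPM in PL, against 30 ± 9.42 CPM in NT (log2 fold change 0.70, adjusted p = 0.018) and 26.8 ± 6.02 CPM in NCT (0.86, adjusted p = 0.00453). Against NT it was not called without the mice high in Pth or Lipf (0.63, adjusted p = 0.153). Adam15 had the smallest p in NT against NCT (0.41, adjusted p = 0.255). Of the 12 list calls in PL against NT, Celsr2, Lsr, Cldn4, Nkd2 and Psen2 stood in 9 of 9 fits that left out 1 mouse, while without replicate 8 these 5 were the ones left. Evpl stood in 1 of 9 such fits, Krt7 in 2, Clstn1 and Perp in 3, Prrx1 in 4, Apc in 5 and Ehf in 7. Without the mice high in Pth or Lipf 3 stood (Celsr2, Lsr and Nkd2), without the mouse block 7 stood, and in females alone none did. Of the 27 list calls in PL against NCT, 19 stood without the libraries high in Pth or Lipf, 10 in females alone, 6 in the mice of 1 number series and 3 (Celsr2, Lsr and Pvr) with the adipocyte markers as a covariate. Between 20 (without PL replicate 3) and 25 stood in the 18 fits that left out 1 library, and 21 stood without NCT replicates 6 and 9. Among the named calls Perp stood in 5 of the 18 fits, Afdn in 9, Dsp in 10, and Pcdh18 and Cdh11 in 13.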

How the data were processed

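Laser-captured thyroid gave total RNA (miRNeasy Micro kit) for QuantSeq libraries, which read transcript 3′ ends, per the labels' protocols. The authors deposited raw read counts per gene, whole numbers whose totals differ between libraries. Per the submitters' processing notes, the build was GRCm38 and the tools included STAR, featureCounts and DESeq2, with no version. Annotation, use of strand and treatment of molecular identifiers: none is given in the sources used here, so reads of overlapping genes on opposite strands may not have been told apart. Of 54532 rows, 54495 were matched by identifier to GENCODE M21 (GRCm38), whose coordinates are given, counted from 1; the others held 0.00428% of counts.

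Groups, sex and mouse came from the labels, and each library of a group is a separate mouse. In 108 pairs of libraries within groups none matched within sampling noise (lowest chi-square per degree of freedom 12.3). PL and NT were paired by the mouse number; deviations from the group means within the 9 pairs correlated at -0.0162 to 0.212, and 5 pairs were above 0.1.

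Each comparison was fitted over its own libraries in edgeR 4.0.16 (R 4.3.3) by its quasi-likelihood F test (trimmed mean of M values factors, filterByExpr with a minimum count of 10, robust), with the mouse as a block in PL against NT and Benjamini-Hochberg adjustment over all genes tested. Standard errors come from the fold change and its F value, and 95% intervals use the fit's degrees of freedom. CPM use factors over all 27 libraries. Likeness is Pearson's r of log2 CPM (prior count 2) among genes of at least 10 CPM. The fits were tested on simulated data. The members and lists were chosen with earlier results of these data known. Of each list, up to 3 calls per direction and comparison, by smallest p, are named, or the gene of smallest p where none passed; 1 gene so picked is not reported here. The alternatives are other size factors, DESeq2 1.42.0 (Wald), limma-voom (limma 3.58.1), other filters, libraries left out (also those over 15% mitochondrial counts), females alone, no block, and a covariate for sex, adipocyte markers or the series of mouse numbers. List genes with no row (2) were not analysed here.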

Additional observations from a re-analysis of the deposited data

Results flagged for a closer look

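Cdh6 in PL replicate 3 stood apart from the other 8 lesions. It had 54.1 CPM, and its gap to the next lesion took 0.746 of the whole range of the 9 PL libraries, above the 95% critical value of Dixon's test for 9 samples. The other 8 lesions had 1.57 to 14.9 CPM. The test, which assumes normally distributed values, was run on linear CPM in 30 sets of values (10 genes in 3 groups). If that assumption held, about 1 in 20 would be expected to pass by chance. It was not run on the log scale, where the same gap takes a smaller part of the range.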

How the results depend on the processing

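Alternatives gave the members the same direction and side of the threshold in 347 cases outside the left-out fits and in 444 left-out fits; 4 calls were lost, 2 gained, and 17 and 6 signs turned. The causes were not tested.

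Genes called in PL against NT numbered 1285 with the DESeq2 Wald test, 832 without a filter, 95 without mice over 2000 CPM of Pth or Lipf, 6 in females and 137 to 529 in left-out fits (257, 209, 240, 234 and 137 without replicates 2, 3, 4, 7 and 8); members called numbered 1 with DESeq2 and with limma-voom, and 0 in left-out fits. In the fit without the pairing block there were 402 genes and 0 members. Cdh2 turned to -0.06 without the Pth or Lipf mice. In left-out fits Cdh2 ran from -0.02 to 0.30, Cdh6 from -0.26 to 0.45 and Cdh16 from -0.34 to 0.01.

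In NT against NCT 134 genes were called by DESeq2, 15 without a filter, 7 with the number series as a covariate, 1 without the Pth or Lipf libraries, 1 in females, and 0 by limma-voom, with the adipocyte covariate or in the number series with 4 mice of each group; left-out fits gave 0 to 12 genes (1, 0 and 0 without NT replicates 2, 4 and 6, and 12 and 9 without NCT replicates 7 and 8) and 0 members. With the adipocyte covariate Cdh1 turned to -0.10, Cdh2 to 0.01, Epcam to -0.13, Tjp1 to 0.13 and Clstn3 to 0.37. With the number series Cdh6 turned to -0.06 and Vim to -0.12, and within the series of 4 mice a group Cdh6 turned to -0.23, Tjp1 to 0.04 and Vim to -0.28. Epcam was -0.01 in females. In left-out fits Tjp1 ran from -0.18 to 0.05 and Vim from -0.07 to 0.18.

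In PL against NCT 797 genes were called without the Pth or Lipf libraries, 450 in females, 121 with the adipocyte covariate and 264 in the number series with 4 mice of each group, and 0 members in each of these, and 937 genes and 1 member without the libraries over 15% mitochondrial counts; left-out fits gave 1126 to 1655 genes and 1 member. Cdh6 turned to -0.19 with limma-voom, -0.52 with the number series and -1.52 within that series, where Ctnnd1 was 0.11, Tjp1 0.17 and Krt8 -0.17; Vim was 0.24 with the adipocyte covariate. The number series and mitochondrial alternatives were chosen after seeing the data. Low counts of Cdh2 and Cdh6 limit what could be seen of them.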
